A study of Mus musculus with 9 samples.

Results

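The core histone genes of the mouse yolk sac at embryonic day 9.5 were examined through the probe sets of an Affymetrix whole-transcript gene array whose every listed gene symbol is that of an H1, H2A, H2B, H3 or H4 histone of the clustered kind or of the H1 linker family. Of 28350 probe sets in the value table, 47 met this rule, and together they name 47 histone genes of the 21328 genes that the table names. A single histone gene is named by 30 of them and several histone genes by 17. They comprise 8 probe sets for H1, 4 for H2A, 9 for H2B, 13 for H3, 12 for H4 and 1 that lists both an H2B and an H1 gene (H2bc6 with H1f4). The several-gene probe sets include 10 for H3 that each list 12 genes and 5 for H4 that each list 11 genes, so these 15 share their targets and are not independent measurements, and 2 of the H4 probe sets held identical values on every array. The linker histone gene H1f0 had no probe set in the table.

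The arrays came from yolk sacs of 3 Rnh1-/- (KO), 3 Rnh1+/- (HET) and 3 Rnh1+/+ (WT) samples, 1 array each, all untreated and all on a mixed SV 129/C57BL/6 background, at embryonic day 9.5. The product of Rnh1 is ribonuclease inhibitor, which sits in the cytosol and blocks ribonucleases of the pancreatic family. The labels give neither the number of embryos per sample nor their sex or litter, so p-values here cover sample-to-sample spread only, part of which may be technical. The values are log2 signals as deposited.

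Rnh1 itself had a log2 signal of 6.28, 6.78 and 6.87 on the KO arrays, 9.75, 9.75 and 9.77 on the HET arrays and 10.39, 10.42 and 10.32 on the WT arrays, which follows the labels. Its KO minus WT difference was -3.73 log2 (limma, adjusted p = 1.035e-05). Over the 15070 probe sets tested, the first principal component (51.4% of the variance) put the 3 KO arrays on one side and the 6 others opposite, and on the second (19.3%) KO 1 (0.71) and WT 2 (0.41) stood apart from the other 7 arrays, which lay between -0.47 and -0.002. Results are therefore also given without KO 1, or without both. Among markers of the yolk sac's cell types, the 13 visceral endoderm markers measured averaged 11.67 to 11.87 on KO, 12.04 to 12.18 on HET and 12.04 to 12.14 on WT arrays, and the 11 erythroid markers 8.97 to 9.54 on KO, 9.68 to 10.13 on HET and 9.78 to 10.1 on WT arrays, so both lineages were present in every sample. The Y-linked Eif2s3y ranged from 4.41 to 7.62 on KO, 7.87 to 8.68 on HET and 4.34 to 8.81 on WT arrays. Xist, which is expressed from the inactive X chromosome, ranged from 11.05 to 11.67 on KO, 5.15 to 10.56 on HET and 5.69 to 10.995 on WT arrays, so neither gene was balanced between genotypes. KO 1, KO 2, HET 2 and WT 2 had both Xist at 10.56 or more and Eif2s3y at 7.27 or more, and whether samples were pools of embryos was not tested.

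Histones package DNA, with H2A, H2B, H3 and H4 in the particle around which it is wound and H1 on the linker between particles. Most of their genes sit in clusters as many near-identical copies, are transcribed in S phase, and give mRNAs that end in a stem-loop bound by SLBP and carry no poly(A) tail. Replacement histones and some linker histones such as H1f10 are made outside S phase from polyadenylated mRNAs. Whole-transcript labelling of this kind starts from random primers, so messages without a poly(A) tail can be measured. The yolk sac at this stage is the site of primitive blood formation and holds dividing erythroid cells, visceral endoderm, endothelium and mesoderm.

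The promoters of 5 genes that the results turn on are shown, from the RefSeq promoter table (GRCm38.p6): H1f3, H1f2, H3c4 and H2bc8, which lie in the clusters and had large KO minus WT differences, and H1f10, which lies outside the clusters, for contrast. Each window runs 5′ to 3′ on the gene's own strand, from 250 bases before the start of the gene to 50 after it, and the capitals mark the motifs searched on both strands: the TATA box (TATAAA), the CCAAT box (CCAAT), the octamer of H2B promoters (ATTTGCAT) and the H1 box (AAACACA). No match overlaps another in the windows shown, and a window counts once per motif however many matches it holds.
H1f3 (chr13:23554782-23555081, plus strand): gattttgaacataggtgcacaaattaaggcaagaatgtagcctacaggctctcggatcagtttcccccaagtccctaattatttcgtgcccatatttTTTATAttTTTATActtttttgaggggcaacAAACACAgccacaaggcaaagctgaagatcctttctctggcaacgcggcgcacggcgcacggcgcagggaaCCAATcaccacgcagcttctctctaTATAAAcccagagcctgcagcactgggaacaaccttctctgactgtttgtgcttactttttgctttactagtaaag
H1f2 (chr13:23738557-23738856, plus strand): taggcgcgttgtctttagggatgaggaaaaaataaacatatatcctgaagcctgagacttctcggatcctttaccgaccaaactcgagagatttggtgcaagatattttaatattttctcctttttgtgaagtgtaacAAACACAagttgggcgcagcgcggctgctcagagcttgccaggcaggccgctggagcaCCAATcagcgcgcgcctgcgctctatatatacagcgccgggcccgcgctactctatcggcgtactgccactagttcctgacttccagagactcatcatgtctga
H1f10 (chr6:87981433-87981732, minus strand): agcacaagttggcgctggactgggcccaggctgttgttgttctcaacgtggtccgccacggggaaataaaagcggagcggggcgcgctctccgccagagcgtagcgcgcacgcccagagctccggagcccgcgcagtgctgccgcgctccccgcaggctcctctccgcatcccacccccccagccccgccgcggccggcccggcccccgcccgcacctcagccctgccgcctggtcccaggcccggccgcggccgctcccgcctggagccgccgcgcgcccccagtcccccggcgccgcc
H3c4 (chr13:23575513-23575812, plus strand): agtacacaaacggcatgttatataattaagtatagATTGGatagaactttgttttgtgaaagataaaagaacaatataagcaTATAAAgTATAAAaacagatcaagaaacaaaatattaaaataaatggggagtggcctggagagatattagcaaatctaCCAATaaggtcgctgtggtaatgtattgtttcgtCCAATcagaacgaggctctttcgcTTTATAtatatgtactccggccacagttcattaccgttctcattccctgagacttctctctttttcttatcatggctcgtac
H2bc8 (chr13:23571150-23571449, plus strand): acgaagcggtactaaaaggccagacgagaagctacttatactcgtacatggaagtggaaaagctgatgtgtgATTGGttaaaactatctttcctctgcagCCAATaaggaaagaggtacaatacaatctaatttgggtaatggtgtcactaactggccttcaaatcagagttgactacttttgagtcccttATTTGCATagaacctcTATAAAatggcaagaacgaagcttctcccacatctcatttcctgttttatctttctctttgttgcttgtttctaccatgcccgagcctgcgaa

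On the gene's own strand and counted from its start, the H1f3 window had the H1 box at -122, a CCAAT box at -51 and a TATA box at -26. The H1f2 window had the H1 box at -112 and a CCAAT box at -54. The H2bc8 window had a CCAAT box at -150, the octamer at -59 and a TATA box at -43, and the H3c4 window had TATA boxes at -168 and -161 and CCAAT boxes at -90 and -56. The other capitals in these windows are matches on the opposite strand, among them a TATA box match at -32 in the H3c4 window. The H1f10 window held none of the 4 motifs. Of the 47 histone genes, 42 had a window in the table. The CCAAT box was in 32 of these (76.2%), against 41.1% of all 27025 promoters, and in all 10 H3 and all 8 H2B windows but 3 of 11 H4 windows. The TATA box was in 24 (57.1%), against 15.7% of all promoters. The octamer was in 9 (21.4%, against 1.97% of all), of which 6 were H2B and 3 H2A genes. The H1 box was also in 9 (21.4%, against 8.22% of all), of which 5 were H1 genes. These matches describe the letters in the windows and nothing was measured about any factor's binding.

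In the KO yolk sacs, a few single histone genes had higher signal than in WT, led by linker histones and 1 H3 gene, while the probe sets that read many H3 or H4 genes at once differed by at most 0.05 log2. The linker histones H1f10, H1f2 and H1f5, the H3 gene H3c4, the H4 gene H4c9 and the probe sets for H4c17 with H4c11 and for H2bc6 with H1f4 rose, by 0.21 to 0.85 log2. The H2B gene H2bc4 fell by 0.78. The test was limma across the 15070 probe sets that name a gene and whose mean signal over the 9 arrays was above 6.49, the mean of the array 40th percentiles, with Benjamini-Hochberg adjustment and a threshold of 0.05. Of the 47 histone probe sets, 41 passed that filter and 6 were dimmer (H1f3, H1f8, H2ac8, H2bc21, H3c7 and H3c15). In KO against WT, 22.4% of all probe sets passed the test (8.27% higher and 14.1% lower), and 8 of the 41 histone probe sets did (19.5%), 7 higher and 1 lower, which is near the share of all probe sets. Groups without overlap, with every KO array on one side of every WT array, were found in 15 histone probe sets on the high side and 1 on the low side, where 16.5% of all probe sets were higher and 23.5% lower by that measure. Several of these 15 are H3 probe sets that list the same 12 genes and differed by only 0.01 to 0.02 log2, so they are not separate observations. The KO minus WT difference was above 0 in 38 of the 41, with a median of 0.05 log2, against 49.6% of all probe sets and a median of -0.00. The 38 include the 15 probe sets of 11 or 12 genes, which share their targets and differed by only 0.01 to 0.05 log2. With arrays centred on their medians, the H3 probe sets of this kind that were followed fell below 0. The count of 8 was 3 without WT 1 or without WT 2, 4 without WT 3 or without KO 2, 5 without HET 1 or without HET 2, and 5 without WT 2 and KO 1 together. In that last fit H1f10, H1f2, H3c4, H2bc4 and H2bc8 passed, while H1f5, H4c9, H4c17 with H4c11 and H2bc6 with H1f4 did not (limma, adjusted p 0.0674 to 0.164).

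**Figure D1:**
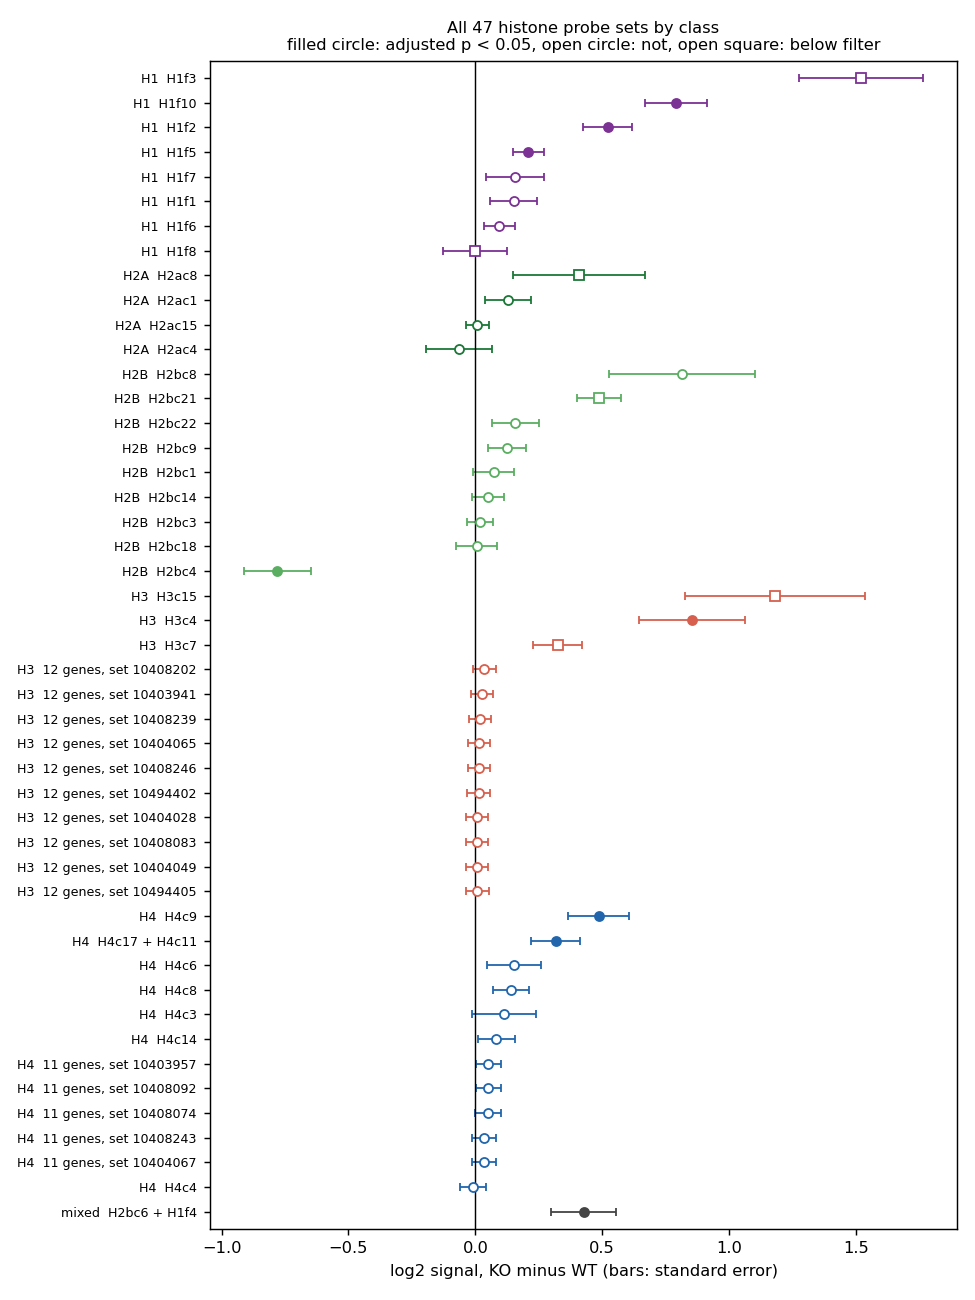
KO minus WT difference in log2 signal (x axis) for all 47 histone probe sets, grouped by class down the page, with the standard error as bars. Filled circles passed the limma test at an adjusted p of 0.05, open circles did not, and open squares mark the 6 probe sets below the filter, whose standard errors come from the fit without a filter. The 10 H3 probe sets of 12 genes sit between 0.01 and 0.04, while the H3 gene H3c4 is at 0.85 and H2bc4 alone lies far below 0, at -0.78.

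The linker histones, which bind the DNA entering and leaving the particle, held 3 of the 7 rises. H1f10, the replication-independent linker histone, had 10.24, 9.71 and 9.81 on KO arrays, against 9.21, 9.20 and 9.11 on HET arrays and 9.16, 9.05 and 9.18 on WT arrays. Every KO array was above every other array. The KO minus WT difference of H1f10 was 0.79 ± 0.12 log2 (SE; limma, adjusted p = 0.00403), a 1.73-fold higher signal, and it was 0.63 without KO 1 (limma, adjusted p = 0.00256). H1f2, one of the somatic replication-dependent linker histones, had 10.92, 10.98 and 10.59 in KO, 10.38, 10.35 and 10.32 in HET and 10.28, 10.38 and 10.27 in WT. The groups did not overlap, and the H1f2 difference was 0.52 ± 0.10 log2 (limma, adjusted p = 0.00688), and 0.48 without KO 1 (limma, adjusted p = 0.0160). H1f5, of the same somatic group, had 11.64, 11.78 and 11.56 in KO, 11.42, 11.46 and 11.40 in HET and 11.46, 11.44 and 11.46 in WT, a smaller difference of 0.21 ± 0.06 log2 (limma, adjusted p = 0.0423). The H1f5 call was lost without any 1 of the WT or HET arrays or without KO 2 (adjusted p 0.0559 to 0.114 in limma). H1f1, a somatic gene too, did not pass (0.15 ± 0.09; limma, adjusted p = 0.267).

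The germ cell linker histones H1f6 (of the testis), H1f7 (of the spermatid) and H1f8 (of the oocyte) did not pass either, with differences of 0.09, 0.16 and -0.00 log2. H1f3, a further somatic linker histone, lay below the filter on its mean over the 9 arrays. It had 7.72, 7.08 and 6.52 in KO, 5.57, 5.60 and 5.42 in HET and 5.60, 5.71 and 5.44 in WT, so that every KO array was above every other. In the fit of all 23398 probe sets that name a gene, in which 11.8% were called (4.39% higher and 7.37% lower), the H1f3 difference was 1.52 ± 0.25 log2 (limma, adjusted p = 0.00655), the largest among the 47 histone probe sets and a 2.87-fold higher signal. Without KO 1 it was 1.21 (limma, adjusted p = 0.00544). The highest of the 3 KO values was on KO 1 for H1f3 and H1f10 and on KO 2 for H1f2 and H1f5.

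**Figure D2:**
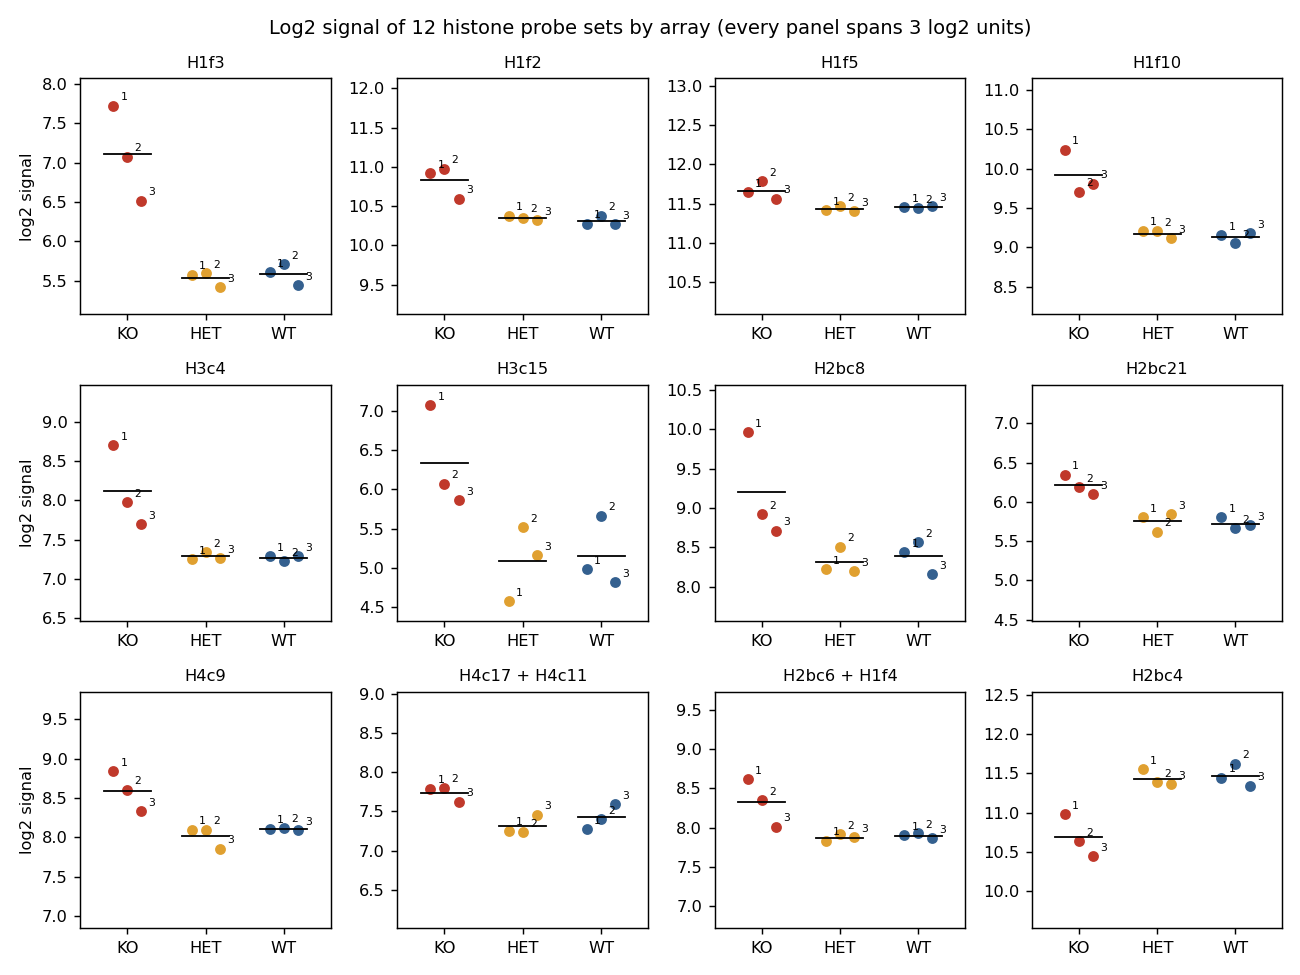
Log2 signal (y axis, 3 log2 units in every panel) of 12 histone probe sets on each array, KO left, HET in the middle and WT right, with array numbers beside the points and a line at each genotype mean. HET and WT points lie close together in most panels, KO points are spread and lie above them, and H2bc4 is the panel in which KO lies below, at 10.45 to 10.98 against 11.34 to 11.62 in WT.

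The H2A and H2B genes, whose products pair as dimers in the particle, gave 1 call among the 11 probe sets tested, and it was a fall. H2bc4 had 10.98, 10.64 and 10.45 in KO, against 11.55, 11.39 and 11.36 in HET and 11.45, 11.62 and 11.34 in WT. All 3 KO arrays were below all 6 others. The difference was -0.78 ± 0.13 log2 (limma, adjusted p = 0.00527), and -0.93 without KO 1 (limma, adjusted p = 0.00286). H2bc8 had 9.97, 8.92 and 8.71 in KO, 8.23, 8.51 and 8.20 in HET and 8.44, 8.56 and 8.16 in WT. Its difference of 0.81 ± 0.29 log2 did not pass (limma, adjusted p = 0.0728), the spread of the KO arrays being wide, with KO 1 highest. Without KO 1 it was 0.43 (limma, adjusted p = 0.0572). It passed without KO 3 (1.06; limma, adjusted p = 0.0372) and without WT 2 and KO 1 together (0.52; limma, adjusted p = 0.0456).

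H2bc21, below the filter, had 6.35, 6.19 and 6.09 in KO, 5.80, 5.62 and 5.84 in HET and 5.81, 5.66 and 5.70 in WT, without overlap. Its difference in the fit without a filter was 0.49 ± 0.09 log2 (limma, adjusted p = 0.00949), and 0.42 without KO 1 (limma, adjusted p = 0.0172). H2ac8, the divergent neighbour of H2bc8, had 6.08 on KO 1 but 4.93 and 4.96 on the other KO arrays, against 4.76 to 4.93 in HET and 4.90 to 4.93 in WT, so its 0.41 ± 0.26 log2 (limma, adjusted p = 0.359) rested on 1 array. The other H2B genes (H2bc1, H2bc3, H2bc9, H2bc14, H2bc18 and H2bc22) differed by 0.01 to 0.16 log2 and did not pass, and the H2A genes H2ac1, H2ac4 and H2ac15 by 0.13, -0.07 and 0.01.

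The H3 class had 1 call among 11 probe sets tested, in a single-gene probe set. H3c4, a replication-dependent H3 gene, had 8.70, 7.97 and 7.69 in KO, 7.25, 7.34 and 7.26 in HET and 7.29, 7.22 and 7.29 in WT. All KO arrays were above all others, with KO 1 highest, and the difference was 0.85 ± 0.21 log2 (limma, adjusted p = 0.0207), a 1.81-fold higher signal. It was 0.56 without KO 1 (limma, adjusted p = 0.00474), and it missed the threshold without WT 1 (adjusted p = 0.0609), WT 2 (0.0640) or WT 3 (0.0502) in limma, with differences of 0.83 to 0.87 log2. H3c15, below the filter, had 7.07, 6.07 and 5.86 in KO, 4.58, 5.52 and 5.16 in HET and 4.98, 5.66 and 4.82 in WT, and its 1.18 ± 0.36 log2 did not pass (limma, adjusted p = 0.0644), nor did the 0.81 without KO 1 (limma, adjusted p = 0.108). H3c7, the dimmest of the 47, had 3.86, 3.65 and 3.98 in KO, 3.40, 3.53 and 3.53 in HET and 3.41, 3.65 and 3.46 in WT, and its 0.32 ± 0.10 did not pass (limma, adjusted p = 0.0639). The 10 probe sets that each list 12 H3 genes differed by 0.01 to 0.04 log2 and 0 of them passed (limma, adjusted p 0.606 to 0.925). Their 95% intervals lay within -0.10 to 0.14 log2. The 12 genes that they list include H3c4, H3c7 and H3c15.

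The H4 class had 2 calls among 12, for H4c9 and for H4c17 with H4c11. H4c9 had 8.84, 8.61 and 8.33 in KO, 8.09, 8.10 and 7.86 in HET and 8.11, 8.12 and 8.09 in WT, every KO array above every other. Its difference was 0.49 ± 0.12 log2 (limma, adjusted p = 0.0225), and 0.36 without KO 1 (limma, adjusted p = 0.0347). It was 0.37 without WT 2 and KO 1 together and did not pass (limma, adjusted p = 0.0674). It also missed the threshold without KO 2, WT 1, WT 2 or WT 3 (limma, adjusted p 0.0584 to 0.0675). The probe set for H4c17 and H4c11 had 7.79, 7.80 and 7.63 in KO, 7.25, 7.23 and 7.46 in HET and 7.27, 7.40 and 7.59 in WT, with a difference of 0.32 ± 0.10 log2 (limma, adjusted p = 0.0491). The probe set for H2bc6 and H1f4 had 8.62, 8.35 and 8.01 in KO, 7.83, 7.91 and 7.87 in HET and 7.90, 7.93 and 7.87 in WT, with 0.43 ± 0.13 log2 (limma, adjusted p = 0.0432), and 0.28 without KO 1 (limma, adjusted p = 0.0575). Both of these calls lay close to the threshold. The first was lost without KO 1, KO 2, HET 1, HET 2, WT 1 or WT 2 (limma, adjusted p 0.0656 to 0.157), and the other without any single array except KO 3 (limma, adjusted p 0.0575 to 0.107). The remaining single H4 genes H4c3, H4c4, H4c6, H4c8 and H4c14 differed by -0.01 to 0.15 log2 and did not pass. The 5 probe sets that each list 11 H4 genes differed by 0.03 to 0.05 log2, with 95% intervals within -0.08 to 0.16, and 0 passed (limma, adjusted p 0.480 to 0.637). The 11 genes that they list include H4c9, H4c17 and H4c11.

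Across classes, the median KO minus WT difference over all members, those below the filter included, was 0.18 log2 for H1 (n = 8), 0.07 for H2A (n = 4), 0.07 for H2B (n = 9), 0.02 for H3 (n = 13) and 0.07 for H4 (n = 12). Leaving out 1 array moved several of these medians by more than 1.5 times. Without KO 1 the H2A median was 0.016 and the H4 median 0.020, without KO 2 the H2A median was 0.015 and the H2B median 0.047, and without KO 3 the H2A median was 0.11 and the H4 median 0.10. The H2B median was 0.032 without WT 2 and 0.12 without WT 3. The median was 0.15 for the 30 single-gene probe sets and 0.02 for the 17 several-gene ones. The mean over the 30 single-gene probe sets was 9.44, 9.21 and 9.11 on the KO arrays, 8.94, 8.94 and 8.96 on the HET arrays and 8.99, 8.98 and 8.97 on the WT arrays. All 3 KO arrays were above the 6 others, and KO 1 was the highest. KO 1 was the highest of the 9 arrays for 24 of the 47 histone probe sets, KO 2 for 15 and KO 3 for 3. Among the 30 single-gene probe sets these counts were 18, 5 and 3, and most of the several-gene ones share their targets. The same counts were not made over all probe sets. The SD of the 7 raised probe sets ran from 0.10 to 0.52 in KO, 0.03 to 0.14 in HET and 0.01 to 0.16 in WT. No test was made between classes.

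The probe sets of many genes are also the brightest, and brightness went with the size of differences over the whole array. The 15 probe sets of 11 or 12 genes read 13.16 to 13.51 on every array, and each ranked on average between the 99.75 and 99.94 percentile of the table. Among all probe sets with a mean signal of 13 or more, 3 of 92 (3.26%) were called in KO against WT, and 0 of the 16 histone probe sets in that range. Between 8 and 10 the share called was 27.1% of all, and 3 of 6 histone probe sets were called there, all higher. Between 10 and 12 it was 28.6% of all, with 2 of 10 histone probe sets higher and 1 lower. Below 8 it was 13.6% of all and 2 of 6, and between 12 and 13 it was 11.5% of all and 0 of 3. The median absolute difference of all probe sets was 0.17 log2 between 8 and 10 and 0.02 at 13 or more. Whether the brightest histone probe sets could have shown a change of the size seen in H3c4 was not tested. A further 9 probe sets list histone genes beside a symbol outside the rule, and 0 of them were called (limma, adjusted p 0.299 to 0.944). Those of the H2B class list both H2bc4 and H2bc8 among 14 or 15 genes, and their KO minus WT differences were 0.02 to 0.07 log2.

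**Figure D3:**
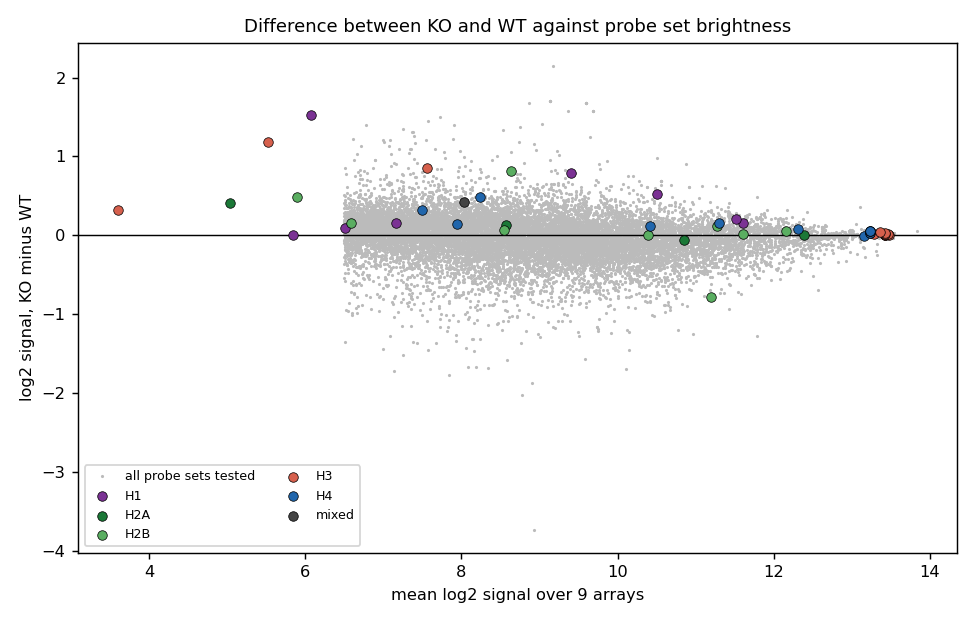
KO minus WT difference in log2 signal (y axis) against the mean log2 signal over the 9 arrays (x axis), for all 15070 probe sets tested in grey and the 47 histone probe sets in colour by class. The grey cloud narrows to the right of 12, the histone probe sets there lie close to 0, and the lone grey point at -3.73 is Rnh1.

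Along the histone clusters, some neighbouring genes had like differences and others did not. In the gene order of RefSeq GRCm38.p6, the larger run of neighbouring histone genes holds 32 genes. H1f3, at 1.52 log2, lies next to H4c6 (0.15), and H3c4 (0.85) lies next to H4c4 (-0.01). H2bc6 and H1f4, read by 1 probe set at 0.43, are separated from H2bc4 (-0.78) by 1 gene without a probe set of its own, and H1f6 (0.09) and H4c3 (0.11) stand between H2bc4 and H1f2 (0.52). H2ac8 (0.41) and H2bc8 (0.81) are direct neighbours and both were highest on KO 1. H1f1 (0.15), H2bc1 (0.07) and H2ac1 (0.13) lie side by side with like values, as do H2bc3 (0.02) and H2ac4 (-0.07). The smaller run holds 23 genes, and its differences went from 0.01 (H2ac15) to 0.49 log2 (H4c9), with H1f5 (0.21) and H2bc22 (0.16) between them. These are differences only and were given no test along the cluster.

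**Figure D4:**
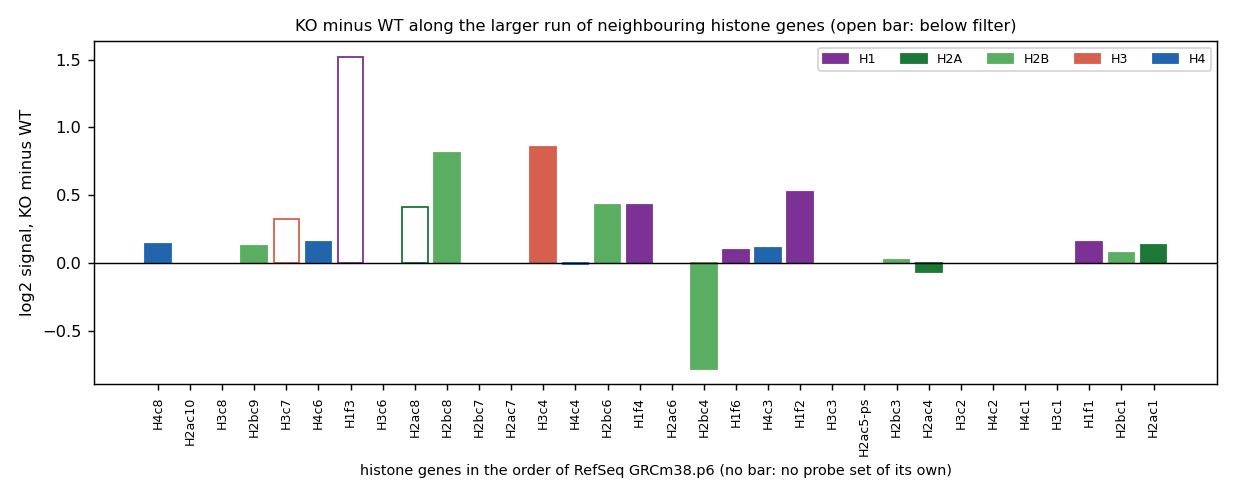
KO minus WT difference in log2 signal (y axis) for the 32 genes of the larger run of neighbouring histone genes, in the order of RefSeq GRCm38.p6 (x axis), coloured by class, with open bars for probe sets below the filter. H2bc6 and H1f4 share 1 probe set and hence 1 value. H1f3 (1.52) stands beside H4c6 (0.15), H3c4 (0.85) beside H4c4 (-0.01) and H2bc4 (-0.78) beside H1f6 (0.09). The bars between H1f3 and H3c4, for H2ac8 (0.41) and H2bc8 (0.81), are also above 0.

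In the HET yolk sacs, 0 of the 41 histone probe sets passed against WT in limma, as did 0 of all 15070 probe sets (0% called), and at an unadjusted p under 0.05 it was 397 of all (2.63%) and 1 of the 41 histone probe sets, H1f1, at -0.24 ± 0.09 log2 (limma, adjusted p = 0.920). H1f1 had 11.42, 11.20 and 11.57 in HET and 11.67, 11.59 and 11.64 in WT. With array weights, limma called 4 of all probe sets and 0 histone ones. HET arrays were all below WT arrays in 7 of the 41 and all above in 0, where 7.35% and 4.24% of all probe sets did so. Among these 7 are H3 probe sets that list the same 12 genes, each at -0.02 log2. The differences of the 47 histone probe sets lay between -0.24 and 0.21 log2, and 32 of the 41 were below 0 with a median of -0.02, against a median of -0.01 over all probe sets. The 32 include the 15 probe sets of 11 or 12 genes, which share their targets. H1f3, H3c4 and H1f10, with large differences in KO, stood at -0.06, 0.02 and 0.05 log2 in HET minus WT.

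Set against HET instead of WT, the KO arrays gave 10 calls among the 41 histone probe sets (24.4%), 9 higher and 1 lower, where 21.4% of all probe sets were called (8.83% higher and 12.6% lower). The KO arrays are the same as in the comparison with WT, so this is not a separate observation of them. Groups did not overlap in 19 on the high side and 1 on the low side, where 16.9% and 20.2% of all probe sets did so. Several of these 19 are H3 probe sets that list the same 12 genes and differed by only 0.03 to 0.05 log2. Called against both WT and HET were 8, and their KO minus HET differences were H3c4 at 0.84, H1f10 at 0.74, H4c9 at 0.58, H1f2 at 0.48, H2bc6 with H1f4 at 0.45, H4c17 with H4c11 at 0.42, H1f5 at 0.23 and H2bc4 at -0.74 log2. Called against HET and not against WT were H1f1 (0.39 log2; limma, adjusted p = 0.0199) and H2bc22, an H2B gene (0.31 log2; limma, adjusted p = 0.0453). H2bc22 had 6.93, 6.72 and 6.56 in KO, 6.51, 6.44 and 6.34 in HET and 6.64, 6.55 and 6.55 in WT, so the KO arrays lay above HET and overlapped WT. In the fit without a filter H1f3 differed from HET by 1.58 log2 (limma, adjusted p = 0.00564) and H2bc21 by 0.46 (limma, adjusted p = 0.0119). The count of 10 was 4 without HET 1 or without HET 2 and 6 without HET 3 or without KO 2.

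The replacement histones, which lie outside the clusters and mostly have polyadenylated mRNAs, lay above 0 in KO minus WT in 7 of the 7 probe sets tested, of 9 in the list, with a median of 0.33 log2 against -0.00 over all probe sets, and 1 passed, where 22.4% of all probe sets did. H2az2, which encodes a form of H2A.Z found at gene starts, averaged 10.04 ± 0.04 in KO and 9.70 ± 0.09 in WT (SD, n = 3 each), a difference of 0.34 ± 0.07 log2 (SE; limma, adjusted p = 0.0124). H2aj (0.33), Macroh2a1 (0.31) and Macroh2a2 (0.56 log2), of which the last pair encode macroH2A, did not pass (limma, adjusted p 0.0700 to 0.0787). The list mean was 9.26 to 9.37 on KO, 9.03 to 9.14 on HET and 9.04 to 9.08 on WT arrays, so KO arrays were the highest here too.

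Most factors that make and degrade histone mRNA did not pass the test. Of 44 such genes tested, 2 rose, 4 fell and 38 did not pass in KO against WT, with a median of 0.04 log2, where 22.4% of all probe sets were called. Srrt (ARS2), which joins the cap-binding complex and takes part in 3′ end formation, rose by 0.26 ± 0.04 (limma, adjusted p = 0.00529). Tut7, a terminal uridylyltransferase that marks RNAs for decay, fell by 0.35 ± 0.08 (limma, adjusted p = 0.0134), Cpsf3, the endonuclease that cuts histone pre-mRNA, fell by 0.27 ± 0.06 (limma, adjusted p = 0.0190), and Mtpap, a poly(A) polymerase, fell by 0.28 ± 0.07 (limma, adjusted p = 0.0223). Named after their values were seen, the remaining calls were Snrpg, of the Sm ring (0.22 higher), and Eri1, an exonuclease that trims histone mRNA ends (fell by 0.21). Slbp, the stem-loop binding protein, was named after its values were seen: it averaged 9.64 ± 0.06 in KO and 9.57 ± 0.03 in WT (SD, n = 3 each), with a difference of 0.07 that did not pass (limma, adjusted p = 0.506). Among 33 histone chaperones and their partners, 3 rose and 1 fell, with a median of 0.02 log2. Set, which encodes a histone-binding protein and inhibitor of phosphatase PP2A, rose by 0.74 ± 0.06 (limma, adjusted p = 0.00112). Daxx, a chaperone of H3.3, rose by 0.24 ± 0.06 (limma, adjusted p = 0.0220), Vps72, which binds H2A.Z, by 0.28 ± 0.07 (limma, adjusted p = 0.0243), and Spty2d1, which binds H3 and H4, fell by 0.30 ± 0.09 (limma, adjusted p = 0.0466). The calls of Daxx and Vps72 were lost without KO 3 or without any 1 of the WT arrays, that of Cpsf3 without any 1 of the WT arrays, that of Mtpap without KO 2, KO 3 or WT 2, and that of Spty2d1 without any array but KO 1 and WT 3 (limma, adjusted p 0.0547 to 0.146).

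Genes of DNA replication, like the clustered histone genes, are transcribed in S phase. Of 61 tested, 1 rose and 3 fell in KO against WT, with a median of -0.03 log2, and their mean was 9.81 to 9.89 on KO, 9.81 to 9.82 on HET and 9.87 to 9.89 on WT arrays. Over all probe sets tested, 22.4% were called, a larger share than in this list or in the mitosis list below. E2f7, a repressor of the E2F family, rose by 0.28 ± 0.06 (limma, adjusted p = 0.0111). Prim2, of the primase, fell by 0.36 ± 0.06 (limma, adjusted p = 0.00579), Pole2, of polymerase epsilon, by 0.31 ± 0.10 (limma, adjusted p = 0.0478) and Rrm1, of ribonucleotide reductase, by 0.20 ± 0.06 (limma, adjusted p = 0.0476). Of 29 genes of mitosis, 0 rose and 4 fell, with a median of -0.09 log2: Hmmr fell by 0.51 ± 0.09 (limma, adjusted p = 0.00595), and the spindle and kinetochore genes Bub1 by 0.32, Kif11 by 0.23 and Nuf2 by 0.24. The calls of Rrm1, Pole2 and Nuf2 were close to the threshold, and each was lost without 8 of the 9 arrays in turn (limma, adjusted p 0.0539 to 0.149). E2f7 lost its call without WT 1 (limma, adjusted p = 0.0505), Bub1 without WT 1 or WT 2 (limma, adjusted p 0.0704 to 0.0790) and Kif11 without KO 2 or any 1 of the WT arrays (limma, adjusted p 0.0529 to 0.0825).

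Small structured RNAs, which like the clustered histone mRNAs carry no poly(A) tail, were higher in KO. Of 50 probe sets for snoRNAs, snRNAs, vault and similar RNAs that were tested, 23 rose and 0 fell, with a median of 0.38 log2. Over all probe sets tested, 8.27% rose and 14.1% fell, with a median of -0.00 log2. Rnu3a, a U3 snoRNA of ribosomal RNA processing, rose by 1.67 ± 0.17 (limma, adjusted p = 0.00125), Vaultrc5, a vault RNA, by 1.45 ± 0.14 (limma, adjusted p = 0.00112), Snora62 by 0.86 ± 0.09 (limma, adjusted p = 0.00133) and Snord55 by 0.69 ± 0.08 (limma, adjusted p = 0.00145). The list mean was 8.53, 8.36 and 8.28 on the KO arrays, 7.92, 7.84 and 7.88 on the HET arrays and 7.96, 8.10 and 7.90 on the WT arrays, and KO 1 was the highest as it was for the single-gene histone probe sets. The part of whatever moves these RNAs in the histone values was not tested.

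**Figure D5:**
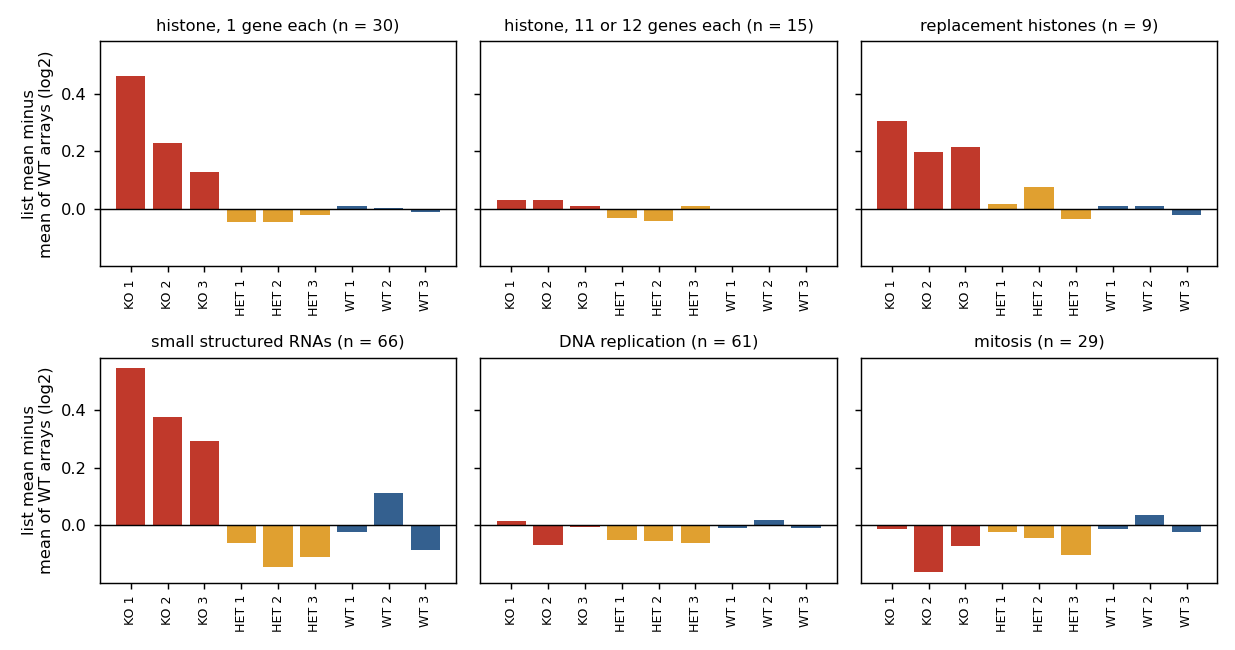
Mean log2 signal of 6 gene lists on each array minus the mean of the WT arrays (y axis), KO arrays left, HET in the middle and WT right. The 30 single-gene histone probe sets, the 9 replacement histones and the 66 small structured RNAs (dim ones included) are highest on the 3 KO arrays. The 15 many-gene histone probe sets and the replication and mitosis lists stay within 0.2 log2 of WT. So do the single-gene histone mean on KO 3 (9.11, against 8.97 to 8.99 on WT) and the replacement histone mean on KO 2 (9.26, against 9.04 to 9.08).

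Cell type markers moved in the same samples. In KO against WT, 8.27% of all probe sets tested rose and 14.1% fell. Of the markers, 9 of 11 erythroid, 6 of 13 visceral endoderm and 3 of 5 macrophage ones (Mrc1, Csf1r and Fcgr3) fell and 0 rose. In endothelium 1 of 11 rose (Egfl7) and 3 fell (Gja5, Flt1 and Tek), and in mesoderm 4 of 10 rose (Hand1, Hand2, Twist1 and Tbx20) and 1 fell (Postn). In bulk tissue, fewer cells of a type and less RNA per cell cannot be told apart. Trophoblast (3 tested of 6) had 0 calls and decidua (6 tested of 7) 1 rise (Des), and both lists varied within genotypes: the trophoblast mean was 6.25 to 6.79 on KO, 5.52 to 6.53 on HET and 6.34 to 6.89 on WT arrays, and the decidual mean 8.64 to 8.92 on KO, 8.03 to 8.58 on HET and 8.37 to 8.75 on WT arrays. The endothelial mean was 9.32 to 9.37 on KO, 9.40 to 9.58 on HET and 9.45 to 9.62 on WT arrays, the mesodermal mean 10.33 to 10.37 on KO, 10.06 to 10.13 on HET and 10.08 to 10.19 on WT arrays, and the macrophage mean, over 10 markers of which 5 lay below the filter, 6.47 to 6.54 on KO, 6.76 to 6.87 on HET and 6.70 to 6.76 on WT arrays. The marker genes in parentheses were named after their values were seen. The part of these shifts in the histone values was not tested.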

How the data were processed

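Total RNA from 9 yolk sac samples was labelled and hybridised to 1 Affymetrix whole-transcript array each. The authors deposited log2 values per probe set, which the submitters' processing notes credit to RMA and Affymetrix Expression Console (1.2.1.20). The sources used here do not give the build of the probe annotation. A probe set that lists several genes reads them together, and whether its signal adds up their levels was not tested. RMA brings the probe signals of the arrays to 1 common distribution, so a difference is relative to the other probe sets. The deposited probe set values did not share 1 distribution, with array medians of 7.07 to 7.20. The number of arrays limits the precision.

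Gene symbols came from the platform annotation: of 28350 probe sets, 21780 named 1 gene, 1618 several and 4952 none, and the symbols of 21689 were checked by Entrez number against RefSeq, which changed 0. All 9 arrays entered 1 limma model (limma 3.58.1, R 4.3.3; genotype, no covariate, lmFit and eBayes), with Benjamini-Hochberg adjustment over all probe sets fitted. Probe sets naming a gene with a mean above 6.49 were tested (15070 of 23398), and the 6 dimmer histone probe sets were read from a fit without this filter. The fit was tested on simulated data. The members and all lists were chosen with earlier results of these data known. Named were Rnh1, the 10 largest called rises and falls per comparison, up to 4 members per class and per list by smallest unadjusted p, and H1f0 and H1f10; members below the filter are named too. Promoter windows came from RefSeq (GRCm38.p6).

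Same-numbered samples were not treated as paired in the main fit, as the labels give no litter. Their deviations correlated at -0.16, -0.23 and 0.35 for KO with WT and at -0.07, 0.36 and 0.44 for HET with WT. For KO with HET the correlations were 0.22, -0.27 and 0.20. With 3 samples per genotype these correlations cannot settle whether same-numbered samples belong together. Alternatives were other filters and probe set selections, array centring, quantile and loess normalization, another prior, array weights, the compared genotypes alone, the replicate number as a block, Eif2s3y as a covariate, a looser threshold and leaving out arrays.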

Additional observations from a re-analysis of the deposited data

How the results depend on the processing

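Over 24 alternatives, the count of histone probe sets called stayed within 1.5 times the reported count in 15 for KO against WT (8), in 19 for KO against HET (10) and in all 24 for HET against WT (0). For KO against WT it was 4 with arrays centred on their medians, 4 with only the 2 genotypes compared, 5 without WT 2 and KO 1 together, and 3 to 9 over the leave-one-out fits; for KO against HET it was 5 with only the 2 genotypes compared and 4 to 10 over the leave-one-out fits. Centring moved the median of all probe sets to -0.07 log2 in KO minus WT and gave 636 higher and 2622 lower of all probe sets (80.5% lower), against 1247 and 2127 (63.0% lower) as reported. H1f10, H1f2 and H2bc4 passed under all 24 alternatives and H1f3 and H2bc21 under all 22 that could test them; H3c4 passed under 20 of 24, H4c9 under 18, H1f5 under 11, H2bc6 with H1f4 under 10 of 23 and H4c17 with H4c11 under 7 of 23, and H2bc8 under 5. With the replicate number as a block, 6 were called in KO against WT, 11 in KO against HET and 0 in HET against WT; H1f5 (limma, adjusted p = 0.0515) and H4c17 with H4c11 (limma, adjusted p = 0.0627) were lost. Signs were followed only for the probe sets named by the rule, and the differences that changed sign were small. With centred arrays, H2ac15 was at -0.0606 and 3 H3 probe sets of 12 genes at -0.0322, -0.0430 and -0.0495. Centring moves every KO minus WT difference by the same amount, so other histone probe sets with positive differences as small would change sign too. With quantile normalization, H2ac4 was at 0.00811. With array weights, a fit that did not fully converge, H2ac15 was at -0.0137 and H1f8 at 0.0478. H1f8 was at 0.141 without WT 2 and KO 1. Over the leave-one-out fits H2ac4 ran from -0.225 to 0.0598, H2ac15 from -0.00358 to 0.0163 and H1f8 from -0.127 to 0.150. The cause of the other changes was not tested. The 6 histone probe sets below the filter have the lowest mean signal of the 47, and whether signal near the top of the array's range limits the many-gene probe sets was not tested.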
